A study of Mus musculus with 12 samples.

Results

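Heat shock proteins and their partners form the cell's protein folding machinery, and their transcripts were compared here in the aortas of old and adult mice. The members were taken by name: every gene probe called Hspa, Hspb, Hspd, Hspe, Hsph, Hsp90 or Dnaj, the numbered Cct subunits, and Stip1, Hsf1, Hsf2 and Bag3. The rule found 118 of the 55681 gene probes on the array, which belong to 86 genes. Of these, 76 genes gave a probe detected (well above background) on 6 or more arrays out of 12, and they were tested within the fit over all 16759 genes that passed that filter. The descending aorta was taken from male C57BL/6 mice of 20 months (n = 6) and of 6 months (n = 6). No mouse was treated, and each array held the RNA of 1 animal, labelled with Cy3. The vessel had been flushed with cold saline through the left ventricle, freed of surrounding fat and frozen, per the labels.

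Chaperones bind unfolded stretches of other proteins and keep them from clumping. The HSP70 proteins do this in cycles of ATP hydrolysis that J proteins start and exchange factors such as the HSP110 proteins reset, while HSP90 takes over partly folded clients such as kinases and steroid receptors. Small heat shock proteins hold clients without ATP and are abundant in muscle, including vascular smooth muscle. Heat shock factor 1, encoded by Hsf1, switches the inducible members on by binding repeats of the element GAA, in alternating orientation, in front of them.

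The arrays were alike in overall quality, with 47.5% to 55.8% of gene probes well above background. Each of the 3 slides carried 2 old and 2 adult aortas. All arrays of 20-month mice lay in column 3 of their slide, and none of the 6-month arrays did, so that column and age cannot be told apart. All 7 smooth muscle markers were measured. Other tissues showed unevenly. The mean of 10 heart muscle markers stood 3.02 above the 12-array mean on the log2 scale in 20-month replicate 1 and 1.91 above it in 6-month replicate 1, and the mean of 8 brown fat markers was highest in 20-month replicate 1 (0.65) and in 6-month replicates 3 (0.70) and 6 (0.90). The T and NK cell markers stood out in 6-month replicate 4 (1.68). Of the marker lists, mesothelium differed most between the ages: all 4 genes had the lower mean at 20 months (median difference -2.28), none was called, and their summed linear signal, in units of the array's 75th percentile, spanned 0.179 to 1.96 at 20 months and 1.03 to 6.34 at 6 months. All 6 macrophage markers had the higher mean at 20 months (median difference 0.24), none was called, and their sum spanned 32.7 to 41.3 at 20 months and 24.0 to 37.6 at 6 months. The part of either list in the results below was not tested. Results that move with these arrays are given below with the marker values. Bulk RNA cannot tell fewer cells of a type from less RNA per cell.

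Sequences are shown for the places on which the description turns. A regulatory window from 250 bases before to 50 after the annotated start was available in RefSeq (GRCm38.p6) for 70 of the 86 genes. The heat shock element was searched as GAANNTTCNNGAA on both strands, where N is any base, and overlapping matches on the 2 strands were joined. It occurred in the windows of 179 of 27025 genes (0.662%) and of 4 matched members, Hsph1, Hspd1, Hspe1 and Dnajb6. The Hspd1 and Hspe1 genes lie head to head with annotated starts 216 bases apart and share 1 stretch between them (chr1:55087933-55088147, GRCm38.p6, plus strand). In the 3 sequences below, capitals mark the matched element. The Hsph1 match lies after the annotated starts of that gene, and the other matches lie before theirs. A match is a description of these letters and not a binding site.
Hspd1 and Hspe1, shared stretch: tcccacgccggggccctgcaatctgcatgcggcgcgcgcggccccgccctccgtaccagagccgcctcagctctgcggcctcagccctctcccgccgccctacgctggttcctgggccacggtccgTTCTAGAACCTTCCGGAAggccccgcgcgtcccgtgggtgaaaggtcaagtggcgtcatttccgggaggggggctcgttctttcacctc
Hsph1 (chr5:149636287-149636316, minus strand): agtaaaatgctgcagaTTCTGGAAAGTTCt
Dnajb6 (chr5:29735844-29735873, plus strand): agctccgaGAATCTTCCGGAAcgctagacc

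The array read each transcript with probes of 60 bases. The pair of Hspa8 probes below are the only 2 of the 104 member probes past the filter on which the ages did not overlap, and the Hsph1 and Hspa1a probes belong to the inducible members whose values are given in full. Positions are those of the array files, on mouse build mm9.
Hspa8, probe A_52_P12877 (chr9:40611142-40611201, plus strand): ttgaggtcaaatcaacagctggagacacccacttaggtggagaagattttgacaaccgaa
Hspa8, probe A_55_P2069721 (chr9:40612755-40613050, plus strand): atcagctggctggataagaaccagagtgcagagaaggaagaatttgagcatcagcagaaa
Hsph1, probe A_55_P2003513 (chr5:150420110-150420169, minus strand): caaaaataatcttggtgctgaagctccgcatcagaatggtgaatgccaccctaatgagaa
Hspa1a, probe A_55_P2068459 (chr17:35107117-35107176, minus strand): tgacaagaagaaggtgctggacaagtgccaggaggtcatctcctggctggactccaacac

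No chaperone gene passed the test between the ages. With limma and Benjamini-Hochberg adjustment over all 16759 genes, 0 of the 76 tested members had an adjusted p under 0.05, against 53 of all genes (0.316%), and the lowest adjusted p of a member was 0.215, for Hspb7. At an unadjusted p under 0.05 there were 6 members (7.89%), a share close to that of all genes (7.99%). Of these, 5 had the higher mean at 20 months (Hspb7, Dnajb2, Stip1, Hsph1 and Hspa8), beside 4.58% of all genes, and 1 the lower (Dnajc22), beside 3.41% of all genes. For no member did the 6 values at 20 months lie wholly above or below the 6 at 6 months, whereas the ages did not overlap for 137 of all genes (0.817%). All values below are log2 signals relative to the array's 75th percentile, differences are 20 minus 6 months with the standard error of the fit, and no level of one gene can be set against that of another.

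Small differences were the rule. The median difference was -0.0031 over the members and -0.020 over all genes tested, with 37 members positive and 39 negative. The split follows the scaling: with arrays scaled to their median, 47 members were positive and 29 negative, and the median moved to 0.030 over the members and 0.013 over all genes. The difference was under 0.2 in size for 62 of the 76 members (81.6%), and for 79.5% of all genes. The members also spread little between mice, with a median SD within age of 0.157 against 0.202 for all genes. Signal strength also bears on this spread, and the 2 sets were not matched for it. The ends of the range were Dnajc22 at -1.12 and Hspa1a at 0.55.

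**Figure D1:**
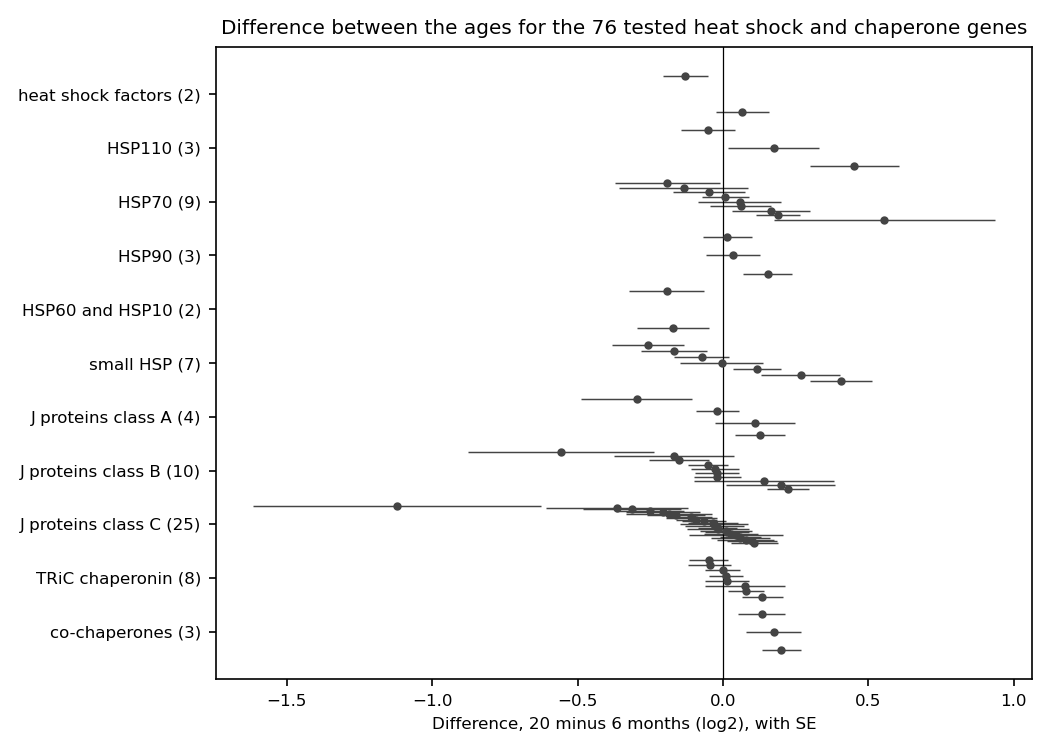
Difference in log2 signal, 20 minus 6 months, of the 76 tested members, grouped by family with the number of genes in brackets. Points are the limma estimates and bars their standard errors. Most points lie within 0.2 of 0, and none passed the adjusted test.

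The heat shock factors overlapped between the ages and neither passed the test. Hsf1, which encodes the main activator of the heat shock response, had 1.16, 1.497, 1.56, 1.41, 1.54 and 1.51 in the 20-month aortas (replicates 1 to 6), against 1.54, 1.59, 1.26, 1.30, 1.28 and 1.33 in the 6-month aortas. The groups overlapped over most of their range, and the difference was 0.066 ± 0.090 (limma, adjusted p = 0.873). Hsf2, a related factor that can form mixed trimers with it, had a difference of -0.13 ± 0.078 (limma, adjusted p = 0.712), with all 20-month values below the 6-month median of -0.67.

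Among the HSP110 proteins, the exchange factors of HSP70, Hsph1 had the largest difference. Its signal was 4.32, 4.24, 4.75, 4.75, 4.42 and 4.50 at 20 months, against 4.50, 4.21, 3.89, 3.90, 4.22 and 3.54 at 6 months. Of the 6-month arrays, 5 lay below every 20-month array, and 6-month replicate 1 lay among the highest. The difference was 0.45 ± 0.15, or 1.37-fold, which did not pass (limma, adjusted p = 0.399). It was positive on each slide (0.22, 0.56 and 0.56 on slides 1 to 3), and the second Hsph1 probe, A_55_P2003513, gave 0.40 ± 0.15. Hspa4l had a difference of 0.17 ± 0.16 and Hspa4 one of -0.052 ± 0.094, with both groups overlapping widely.

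Hspa8 encodes the constitutive cytosolic HSP70, which also strips clathrin from vesicles and carries substrates to lysosomes. On the brightest of its 3 probes, A_55_P2080603, used in the test by gene, it had 8.23, 8.11, 8.47, 8.33, 8.34 and 8.42 at 20 months, against 8.26, 8.10, 8.19, 8.14, 8.06 and 8.01 at 6 months. Here 4 of the 6 values at 20 months lay above all at 6 months, and the difference was 0.19 ± 0.076 (limma, adjusted p = 0.534).

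The other Hspa8 probes separated the ages. Probe A_52_P12877 read 4.65, 4.58, 4.84, 4.72, 4.61 and 4.77 at 20 months, against 4.20, 4.41, 4.40, 4.39, 4.22 and 4.10 at 6 months. Probe A_55_P2069721 read 6.45, 6.46, 6.76, 6.65, 6.53 and 6.70 at 20 months, against 6.26, 6.31, 6.33, 6.26, 6.23 and 6.06 at 6 months. On both, every old mouse lay above every adult one. Their differences were 0.41 ± 0.08 (1.33-fold) and 0.35 ± 0.08 (1.27-fold), and neither passed when all 27583 probes were tested on their own (limma, adjusted p = 0.0686 and 0.151). That test called 71 probes of the whole array (0.257%) and 0 of the 104 member probes. Ages that did not overlap occurred on 212 of all probes (0.769%). Both probes were higher at 20 months on each slide, by 0.21, 0.44 and 0.57 for the first and by 0.13, 0.43 and 0.49 for the second. The mean of the 3 probes had a difference of 0.32, with an adjusted p of 0.124 in limma. Hspa8 is known for many processed copies in the genome, and whether a probe also read such a copy was not tested.

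**Figure D2:**
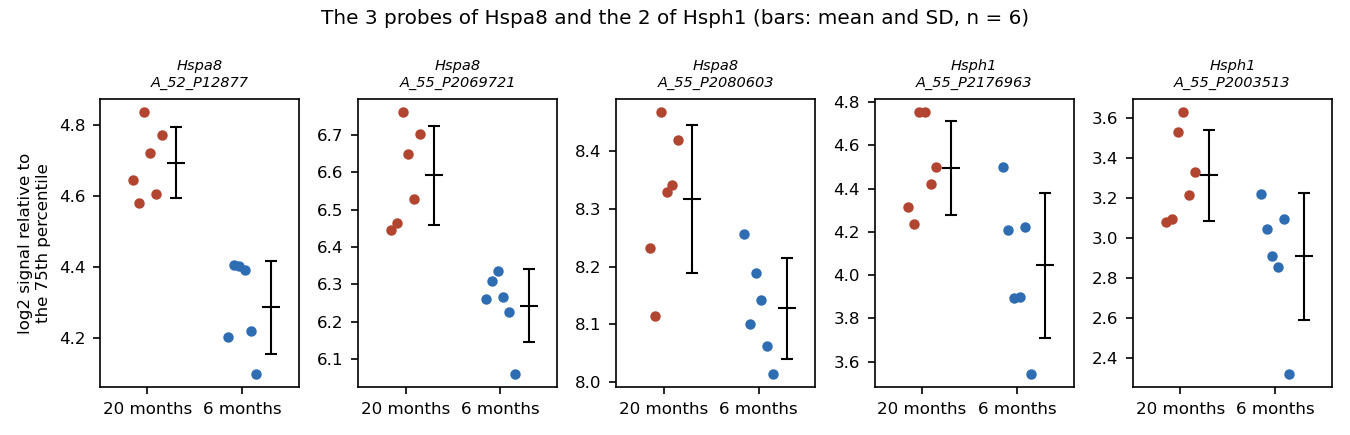
Log2 signal relative to the array's 75th percentile for the 3 probes of Hspa8 and the 2 of Hsph1, 1 point per mouse, 20 months left of 6 months; bars show the mean and SD of 6. The ages do not overlap on Hspa8 probes A_52_P12877 and A_55_P2069721 and overlap on the remaining 3 probes. Each panel has its own axis, which does not start at 0.

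Hspa1a, the classic stress-inducible HSP70, had an SD of 0.70 at 20 months and 0.78 at 6 months, above its difference between the ages. Its signal was 1.5, 2.43, 3.35, 3.34, 3.03 and 2.88 at 20 months, against 0.93, 2.83, 2.73, 2.94, 1.79 and 1.98 at 6 months. The difference was 0.55 ± 0.38 (limma, adjusted p = 0.749), and the slides disagreed in direction, with -0.82 on slide 1, 0.75 on slide 2 and 1.74 on slide 3. It was 0.30 without 6-month replicate 1 and 0.81 without 20-month replicate 1. Both the lowest arrays, 20-month replicate 1 and 6-month replicate 1, were those highest in heart muscle markers. All 10 heart markers were measured, 4 of them positive with age, and their summed linear signal, in units of the array's 75th percentile, spanned 14.0 to 232 at 20 months and 9.15 to 102 at 6 months. The same arrays had the lowest means of 10 immediate early genes, which mark acute handling or stress (-0.33 and -0.80). Of those 10 genes, 8 had the higher mean at 20 months (median difference 0.38), none was called, and their summed linear signal spanned 71.9 to 148 at 20 months and 67.9 to 191 at 6 months. The part of these differences in the Hspa1a values was not tested. Hspa1a has a near-identical neighbour, Hspa1b, whose transcript the same probe could read; no probe carried that name here.

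Of the J proteins that partner the cytosolic HSP70s, Dnajb1 was also lowest in this pair of arrays. Dnajb1, which encodes the J protein that starts the HSP70 cycle under stress, had 3.95, 4.44, 4.77, 5.10, 4.73 and 4.25 at 20 months, against 4.05, 4.64, 5.01, 5.10, 4.66 and 4.79 at 6 months. Replicate 1 was the lowest in either age, and the difference was -0.17 ± 0.21 (limma, adjusted p = 0.855). Dnajb4, named after its values were seen, was also lowest there, at 0.85 in 20-month replicate 1 and 0.93 in 6-month replicate 1. Its other values were 1.44 to 2.09 at 20 months and 1.22 to 2.09 at 6 months, and the difference was 0.14 ± 0.24. Dnaja1, a partner of the constitutive HSP70, had a difference of 0.11 ± 0.14 and its groups overlapped, from 4.51 to 5.26 at 20 months and from 4.62 to 5.21 at 6 months. At 20 months its lowest value was that of replicate 2.

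**Figure D3:**
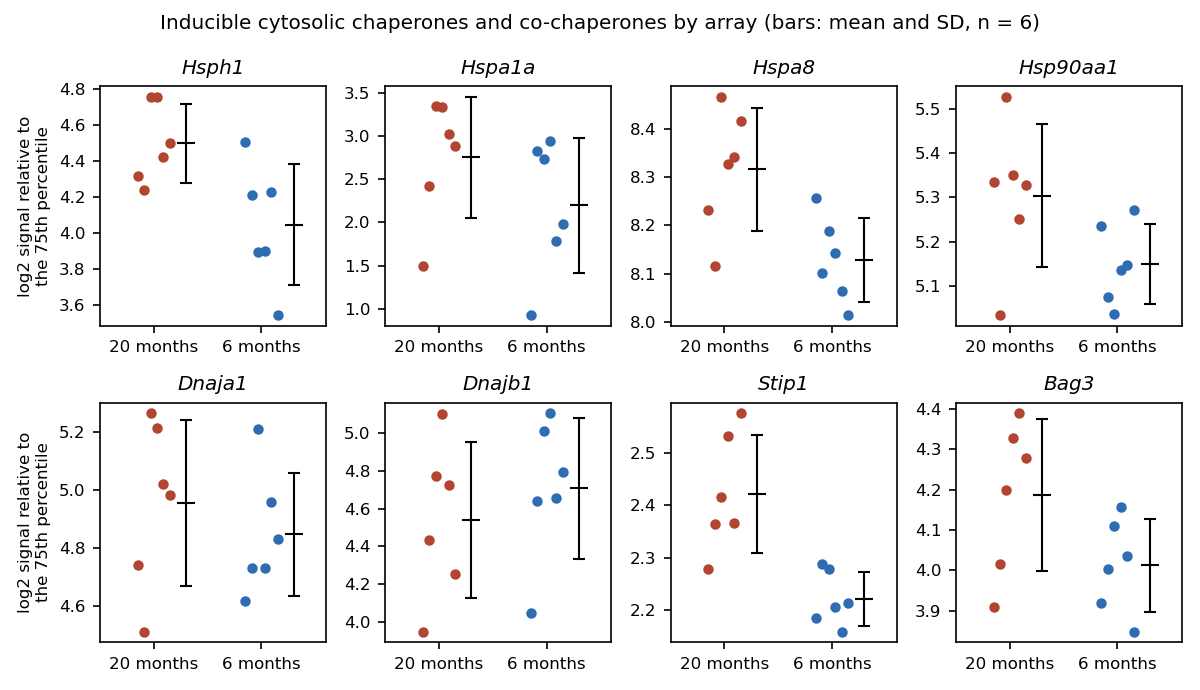
Log2 signal relative to the array's 75th percentile for 8 cytosolic chaperones and co-chaperones, 1 point per mouse in the order of replicates 1 to 6, 20 months left of 6 months; bars show the mean and SD of 6. Hsph1 and Stip1 overlap least between the ages, while Hspa1a and Dnajb1 have their lowest point in replicate 1 of both ages. Each panel has its own axis, which does not start at 0.

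The remaining HSP70 proteins gave small differences. Hspa2, known best from male germ cells, had a difference of 0.17 ± 0.13. Of the 9 tested members of the family, 6 were positive, with a median of 0.058. Hspa12a did not pass the filter.

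HSP90 was nearly level in its constitutive form. Hsp90ab1, the constitutive cytosolic HSP90, had 7.34 to 7.75 with a median of 7.56 at 20 months and 7.37 to 7.64 with a median of 7.55 at 6 months, and had a difference of 0.015 ± 0.084 (limma, adjusted p = 0.977). Hsp90aa1, the inducible form, had 5.33, 5.03, 5.53, 5.35, 5.25 and 5.33 at 20 months, against 5.23, 5.08, 5.04, 5.14, 5.15 and 5.27 at 6 months. Although 4 of the 20-month arrays lay above all the 6-month arrays, 20-month replicate 2 was the lowest of all 12, and the difference was 0.15 ± 0.083 (limma, adjusted p = 0.679).

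The co-chaperones had positive differences in each of the 3 genes tested, also under the other scalings, and none passed the adjusted test. Stip1, which encodes HOP, the adaptor that joins HSP70 to HSP90, had 2.28, 2.37, 2.42, 2.53, 2.37 and 2.58 at 20 months, against 2.18, 2.29, 2.28, 2.21, 2.16 and 2.21 at 6 months. Only 20-month replicate 1 lay within the range of the adult mice. The difference was 0.20 ± 0.068, or 1.15-fold (limma, adjusted p = 0.399). Bag3, an exchange factor that directs damaged muscle proteins to autophagy, had a difference of 0.17 ± 0.094 (limma, adjusted p = 0.679). Its values were 3.91, 4.01, 4.20, 4.33, 4.39 and 4.28 at 20 months, against 3.92, 4.004, 4.11, 4.16, 4.03 and 3.85 at 6 months, with 4 of the old mice above all adults. Hspbp1, an exchange factor and inhibitor of HSP70, had a difference of 0.13 ± 0.080.

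The small heat shock proteins diverged from each other. Hspb7, a family member found mainly in heart and skeletal muscle, where it binds filamin, had 3.33, 3.20, 3.23, 3.54, 3.57 and 3.69 at 20 months, against 2.97, 3.15, 2.97, 3.24, 3.04 and 2.77 at 6 months. Of the old mice, 4 lay above all adults, and the overlap came from 6-month replicate 4. The difference was 0.41 ± 0.11, or 1.32-fold, with the smallest p of any member, yet did not pass (limma, adjusted p = 0.215). It was positive on each slide (0.20, 0.48 and 0.53). The arrays highest in heart markers, replicate 1 of each age, were not the highest in Hspb7 in their group. Without them and 6-month replicate 4, which held the highest adult value, the difference was 0.46 (limma, adjusted p = 0.271). Without the 3 arrays highest in brown fat markers it was 0.35 (limma, adjusted p = 0.294). The part of heart muscle in the Hspb7 values was not tested.

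Hspb1, which encodes HSP27, a regulator of actin in smooth muscle, had 7.30, 7.31, 7.93, 7.67, 7.79 and 7.72 at 20 months, against 7.64, 7.37, 7.01, 7.25, 7.26 and 7.59 at 6 months. The top 4 values were from old mice, but the remaining 2 old mice lay in the adult range. The difference was 0.27 ± 0.14, or 1.20-fold (limma, adjusted p = 0.675). Hspb8, the partner of BAG3 in autophagy, had a difference of 0.12 ± 0.083. The dim probe of Hspb9, a testis member, had a difference of -0.26 ± 0.12 (limma, adjusted p = 0.655).

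Hspb6, which encodes HSP20, whose phosphorylation accompanies smooth muscle relaxation, was lowest in the 3 arrays lowest in smooth muscle markers. Its values were 4.55, 4.75, 4.83, 4.71, 4.68 and 4.69 at 20 months, against 5.08, 5.01, 4.59, 5.01, 5.06 and 4.47 at 6 months. The difference was -0.17 ± 0.11 (limma, adjusted p = 0.744). In the 6-month group, 4 arrays lay above every old mouse, and replicates 3 and 6 lay at the bottom. The mean of the 7 smooth muscle markers was lowest in 20-month replicate 1 and these 2 arrays, at -0.26 in 20-month replicate 1 and -0.32 and -0.44 in 6-month replicates 3 and 6, while brown fat markers were highest in them. Without these 3 arrays, a choice made after the data were seen and one that removes the lowest Hspb6 values, the difference was -0.31 (limma, adjusted p = 0.103). Without the 3 arrays high in heart or T cell markers it was -0.052, and on slides 1 to 3 it was -0.15, -0.34 and -0.018.

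Hspb2, a muscle member, had 3.98, 4.19, 4.15, 4.18, 4.20 and 4.37 at 20 months, against 4.53, 4.39, 3.76, 4.25, 4.44 and 3.72 at 6 months. Its difference was -0.0051 ± 0.14, and it was -0.19 without the arrays highest in brown fat markers (limma, adjusted p = 0.379) and 0.14 without those high in heart or T cell markers. The arrays highest in brown fat markers were the 3 lowest of the 12 for 4 of the 76 members, namely Hspb2, Hspb6, Dnajb5 and Dnajc18 (5.26%, against 4.34% of all genes). Dnajb5, named after its values were seen, stood at 3.14 in 20-month replicate 1, against 3.85 to 4.26 in the other old mice and 3.32 to 3.99 in the adults. The part of tissue makeup in these values was not tested.

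The 8 tested members assigned to the mitochondrion (Hspd1, Hspe1, Hspa9, Dnaja3, Dnajc11, Dnajc15, Dnajc19 and Dnajc30) had the lower mean at 20 months, as did 9413 of all 16759 genes. Trap1, Grpel1 and Grpel2, mitochondrial chaperones outside the rule, are not among these 8 and were counted only with the other chaperones below. However, median scaling turned 1 of the 8 positive, and slide 1 alone gave 4 positive and 4 negative. The only other compartment summarised was the endoplasmic reticulum. As scaled here, all 8 differences were negative, from -0.31 to -0.031 with a median of -0.19, and 0 of 8 passed the adjusted test (lowest adjusted p = 0.679 in limma). HSP60 and its lid HSP10, encoded by the head-to-head genes Hspd1 and Hspe1 whose shared stretch is printed above, fold proteins inside the matrix. Hspd1 had 5.55, 5.11, 5.47, 5.28, 5.25 and 5.12 at 20 months, against 5.36, 5.32, 5.79, 5.38, 5.20 and 5.89 at 6 months. Hspe1 had 5.19, 4.73, 4.82, 4.66, 4.62 and 4.67 at 20 months, against 4.92, 4.73, 5.11, 4.90, 4.73 and 5.34 at 6 months. Both were highest in 20-month replicate 1 and 6-month replicates 3 and 6. The differences were -0.19 ± 0.13 for Hspd1 and -0.17 ± 0.12 for Hspe1 (limma, adjusted p = 0.746 and 0.759).

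The same 3 arrays led for the other import and folding factors. Hspa9, the mitochondrial HSP70 that pulls precursors through the inner membrane, had 5.26, 4.76, 4.99, 4.82, 4.84 and 4.57 at 20 months, against 5.0003, 4.79, 5.42, 4.90, 4.58 and 5.71 at 6 months, and a difference of -0.19. Dnaja3, its matrix J protein, had a difference of -0.30 ± 0.19, and Dnajc15, a J protein of the import motor, one of -0.31 ± 0.17 (limma, adjusted p = 0.730 and 0.679). Dnajc19, a related J protein of the inner membrane named after its values were seen, had a difference of -0.21 ± 0.13. For 6 of the 8 mitochondrial members (75%) these were the 3 highest of the 12 arrays, as they were for 9 of the 76 members (11.8%) and for 8.22% of all genes.

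The brown fat list (Ucp1, Cidea, Dio2, Elovl3, Otop1, Cpt1b, Cox8b and Cox7a1) varied over the arrays together with these members. All 8 of its genes were measured, all 8 had a lower mean at 20 months (median difference -0.42), none was called, and their summed linear signal spanned 1020 to 1913 at 20 months and 1109 to 2167 at 6 months. Without the 3 arrays highest in these markers, the difference was -0.069 for Hspd1, -0.12 for Hspe1 and -0.022 for Hspa9. It was -0.25 for Dnaja3, -0.31 for Dnajc15 and -0.20 for Dnajc19, none of which passed. This choice of arrays was made after the data were seen. It removes the 3 highest values of each of these 6 genes, most of them from 6-month mice. Without the 3 arrays high in heart or T cell markers (replicate 1 of each age and 6-month replicate 4), the difference was -0.31 for Hspd1, -0.28 for Hspe1, -0.33 for Hspa9 and -0.47 for Dnaja3. The median of the 8 members was then -0.31. The part of brown fat in these values was not tested.

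**Figure D4:**
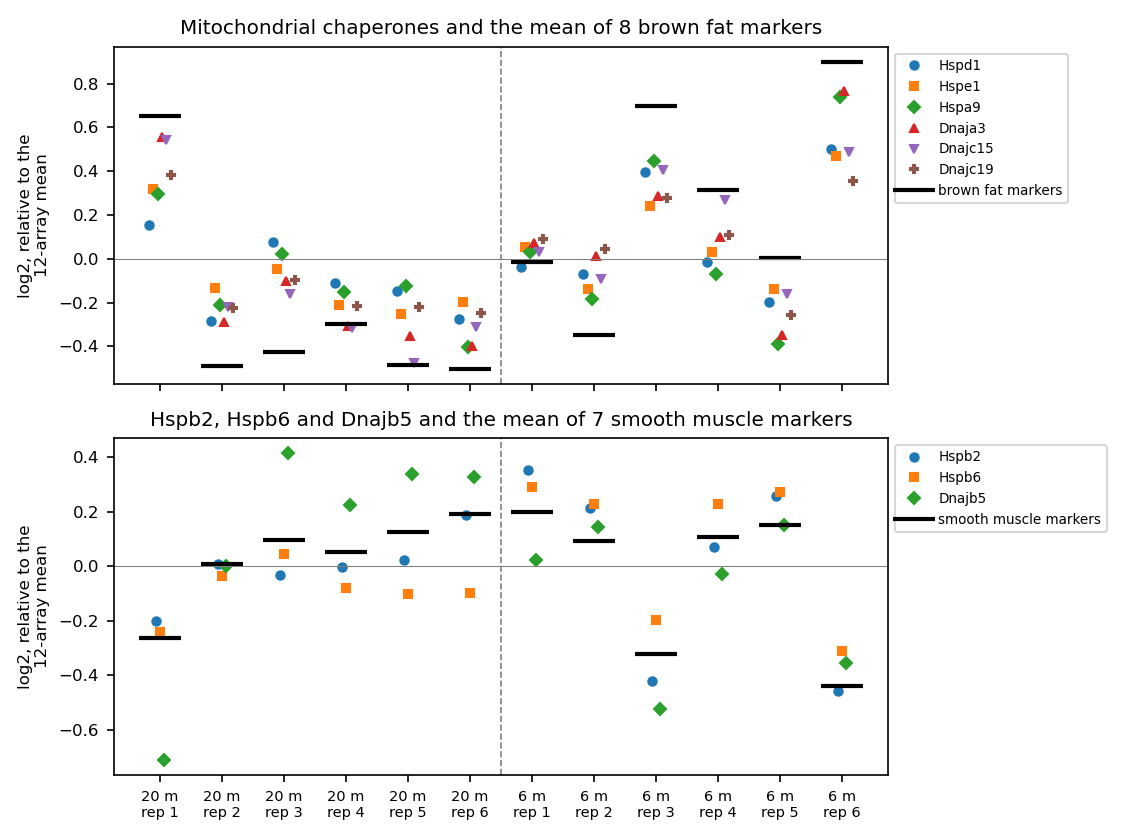
Log2 signal of each array relative to the 12-array mean, with the 20-month arrays left of the dashed line and the 6-month arrays right of it. Top: 6 mitochondrial chaperones (symbols) and the mean of 8 brown fat markers (black bars), which are highest in 20-month replicate 1 and 6-month replicates 3 and 6. Bottom: Hspb2, Hspb6 and Dnajb5 and the mean of 7 smooth muscle markers, lowest in the same arrays.

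The endoplasmic reticulum members showed no common direction. Of 10 tested, 4 were positive and 6 negative, with a median of -0.024, while median scaling gave 6 positive and 4 negative. Hspa5, which encodes BiP, the main HSP70 of that compartment and a target of the unfolded protein response, had 5.58, 5.35, 5.97, 5.74, 5.74 and 5.85 at 20 months, against 6.16, 5.68, 5.61, 5.51, 5.72 and 5.84 at 6 months, and had a difference of -0.048 ± 0.12 (limma, adjusted p = 0.942). Hsp90b1, which encodes GRP94, the HSP90 of the same compartment, had a difference of 0.036 ± 0.093.

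The J proteins made up the largest family, with 39 genes tested. Differences were positive for 14 and negative for 25, with a median of -0.028, and 0 passed the adjusted test. With median scaling, 22 were positive and 17 negative. Class A had 2 of 4 positive, class B 3 of 10 and class C 9 of 25. Dnajb2, a neuronal J protein that sorts clients to the proteasome, had 2.86, 2.82, 2.92, 3.04, 2.80 and 3.04 at 20 months, against 2.72, 2.82, 2.73, 2.63, 2.56 and 2.68 at 6 months. All but 6-month replicate 2 of the adult values lay below every old value, and the difference was 0.22 ± 0.072, or 1.17-fold (limma, adjusted p = 0.347). On slides 1 to 3 it was 0.063, 0.45 and 0.16, and the second probe, A_55_P2023057, gave 0.32, 0.33 and -0.054. Dnaja4 had a difference of 0.13 ± 0.087 and Dnajb12, a J protein of the endoplasmic reticulum membrane, one of -0.15 ± 0.10.

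The most variable member was Dnajc22, with an SD within age of 0.973. It had -0.82, -3.08, -3.58, -3.19, -2.73 and -4.04 at 20 months, against -2.68, -2.10, -1.22, -1.82, -2.39 and -0.51 at 6 months. Its probe was well above background in 5 of the 6 old mice and in all adults. The highest value of each age came from an array high in brown fat markers, and the difference was -1.12 ± 0.50 (limma, adjusted p = 0.596). It was -1.08 without the 3 arrays highest in brown fat markers, which held its 3 highest values. Without the arrays high in heart or T cell markers it was -1.77. The part of tissue makeup in these Dnajc22 values was not tested. Other dim J proteins were Dnajb3, a germ cell member, at -0.56 ± 0.32, and Dnajc27 at -0.25 ± 0.12 (limma, adjusted p = 0.691 and 0.631).

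The chaperonin TRiC, the ring that folds actin and tubulin, had the lowest median SD within age of the families. It was 0.093 over the 8 tested Cct genes, and all 8 differences were under 0.2 in size, from -0.049 to 0.14. Cct6b spread more, with an SD of 0.15 at 20 months and 0.32 at 6 months. The families were not matched for signal strength. Cct8 spread least of all members (SD 0.050), with 3.45 to 3.56 at 20 months and 3.41 to 3.57 at 6 months, and had a difference of 0.010 ± 0.057. Cct2 had a difference of -0.0011 ± 0.061, Cct4 one of -0.049 ± 0.067 and Cct7 one of 0.079 ± 0.062. Cct3 had 2.34, 2.32, 2.45, 2.32, 2.36 and 2.31 at 20 months, against 2.27, 2.19, 2.16, 2.10, 2.12 and 2.45 at 6 months, so that 5 adults lay below every old mouse. Its difference was 0.14 ± 0.072 (limma, adjusted p = 0.679).

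Cytosolic chaperones and Bag3 were also set against Hsph1 over the 12 arrays of both ages, 7 genes in all, the constitutive Hspa8 among them. The permutations over 12 arrays ignored age. A difference between the ages shared by 2 genes therefore enters these coefficients and their p, and Hsph1, Hspa8 and Hspb1 all had the higher mean at 20 months. Hspa8 tracked Hsph1 (Pearson's r = 0.798, permutation p = 0.00116, Benjamini-Hochberg adjusted p over the 7 relations = 0.00812; Spearman's rho = 0.804, permutation p = 0.00276, adjusted p = 0.0193). Without the 2 arrays farthest from the Hsph1 median r was 0.744, again with the ages pooled. Within the ages r was 0.773 at 20 months and 0.603 at 6 months (n = 6 each). Neither passed there, with exact permutation p of 0.0556 and 0.2 (adjusted p = 0.0972 and 0.700). Hspb1 gave r = 0.594 (permutation p = 0.0421, adjusted p = 0.117) and rho = 0.720 (permutation p = 0.0106, adjusted p = 0.0370), with r = 0.905 without the 2 farthest arrays. Within the ages Hspb1 gave 0.774 at 20 months and 0.158 at 6 months.

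For the other 5 genes neither coefficient passed over all arrays. Hsp90aa1 gave r = 0.566 and rho = 0.636 (permutation p = 0.0501 and 0.0313, adjusted p = 0.117 and 0.0731), and Bag3 gave r = 0.526 and rho = 0.483 (permutation p = 0.0765 and 0.116, adjusted p = 0.134 and 0.203). Dnaja1, Hspa1a and Dnajb1 ran with Hsph1 in the old mice and against it in the adults. Dnaja1 gave r = 0.944 at 20 months and -0.377 at 6 months, Hspa1a 0.774 and -0.479, and Dnajb1 0.720 and -0.744. None of these within-age values passed after adjustment (lowest exact permutation p = 0.0111, adjusted p = 0.0778, for Dnaja1 at 20 months), and the differences between the ages were not tested. All values come from the same 12 arrays and share their scaling.

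**Figure D5:**
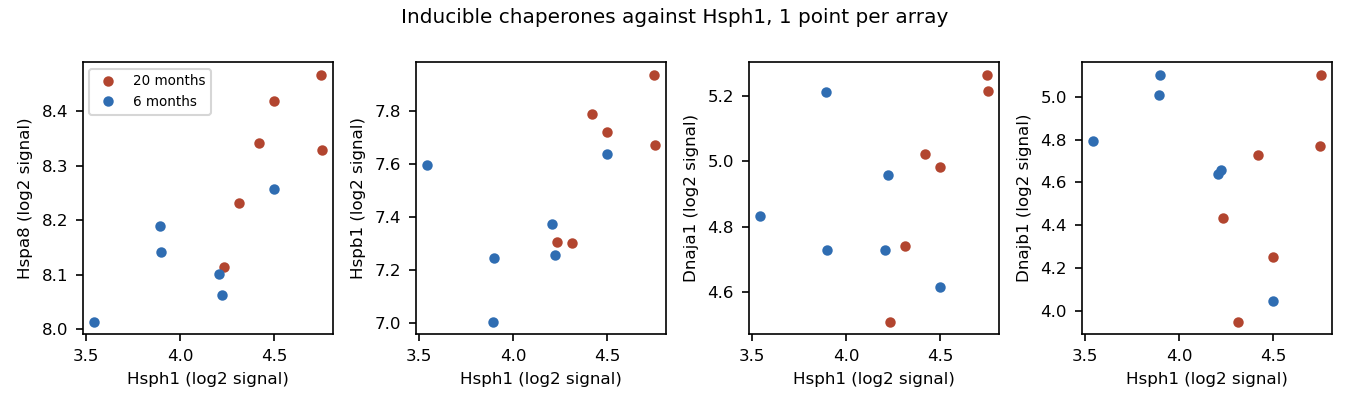
Log2 signal of Hspa8, Hspb1, Dnaja1 and Dnajb1 against that of Hsph1, each relative to the array's 75th percentile, 1 point per mouse, coloured by age. Over the 12 arrays, with the ages pooled, Hspa8 tracked Hsph1 (r = 0.798). For Dnaja1 and Dnajb1 the 20-month points run upward and the 6-month points downward.

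The members whose windows hold the searched form of the heat shock element did not share a direction. Hsph1 stood at 0.45, and Hspd1 and Hspe1, which share the element between them, at -0.19 and -0.17. Dnajb6, a J protein that blocks aggregation of polyglutamine, stood at -0.021. Other forms of the element were not searched. Where several probes of a gene passed the filter (21 members), they had the same sign in 16. They disagreed in sign for Dnaja2, Dnajb14, Dnajc5, Dnajc8 and Hspa13.

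Chaperones outside the rule were listed beside the members. Of 37 cofactors and related chaperones, 35 were tested, 24 positive and 11 negative with a median of 0.023, and 0 passed (lowest adjusted p = 0.691 in limma). Cryab, the small heat shock protein alpha B crystallin, had a difference of 0.15 ± 0.12, and Hyou1, the HSP110 of the endoplasmic reticulum, one of 0.13 ± 0.13. Tcp1, the first TRiC subunit, had a difference of 0.059 ± 0.067. The HSP90 cofactors Ahsa1, Fkbp4 and Chordc1 had differences of 0.062 ± 0.070, 0.056 ± 0.078 and 0.0955 ± 0.0901. Cryaa and Ahsa2 did not pass the filter.

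The 10 member genes below the filter were Hspa12a, Hspb3, Hspbap1, Dnajb7, Dnajb8, Dnajb13, Dnajc5b, Dnajc5g, Dnajc6 and Cct8l1. None stood well above background on more than 2 arrays, so no difference is given for them.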

How the data were processed

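RNA of 12 aortas was measured on 1-colour arrays. Per the file headers, the scanned images were read with Agilent Feature Extraction 10.7.1.1 (protocol GE1_107_Sep09). The array design was 028005, with probe positions on mm9. The deposited intensity is a processed green signal, background-subtracted and not scaled between arrays. A deposited table of log2 values, whose steps are not given in the sources used here, was an alternative. Its probes are centred on 0 (column medians -0.0345 to 0.0120), and it correlated with the scanner values at r = 0.898 to 0.985 across probes per array.

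From the intensities, log2 was taken, flagged spots were left out, spots were averaged per probe, and each array's 75th percentile was subtracted. Of 55681 gene probes 55630 were kept. Probes were named by accession through RefSeq GRCm38.p6 (26413), by symbol (4594) or by the array's name (4515), and 20159 stayed unnamed. Probes well above background on at least 6 arrays (27583) entered, and the brightest represented its gene. The ages were compared in limma 3.58.1 (R 4.3.3, with data.table in version 1.17.8), with no covariate, Benjamini-Hochberg adjustment over all genes and a threshold of 0.05. The fit was tested on simulated data. Correlations used 100000 permutations (scipy 1.17.1), or all of them within an age. The number of arrays limits the precision.

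The members and gene lists were chosen with earlier results of these data known. Named genes were the main members of each role, the 3 smallest p in each family and the largest and smallest spread. Dnajb4, Dnajb5 and Dnajc19 were added later and are marked. Alternatives covered background correction, scaling, filter, probe choice, slide, replicate number and arrays left out. Replicates are separate mice.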

Additional observations from a re-analysis of the deposited data

Results flagged for a closer look

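In 9 of the 96 sets of 6 mice checked (48 named genes at each age), 1 array stood apart from the other 5 by a larger share of the range than Dixon's test allows, which chance exceeds in about 1 in 20 sets. All 9 were at 20 months and came from 2 arrays. Replicate 1, which held heart muscle and brown fat markers, was high for Dnaja3 (4.82, next 4.16), Dnajc15 (6.10, next 5.40), Dnajc19 (3.09, next 2.61) and Hspe1 (5.19, next 4.82), and low for Dnajb5 (3.14, next 3.85). Replicate 3 was high for the TRiC subunits Cct3 (2.45, next 2.36), Cct4 (3.66, next 3.54) and Cct8 (3.56, next 3.46), and low for Hyou1 (-2.23, next -1.69). Dnajb5 and Dnajc19 were named after their values were seen.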

How the results depend on the processing

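No member passed the adjusted test under any of the 28 alternatives. The lowest adjusted p of a member was 0.0686 with every probe tested on its own (Hspa8), 0.103 without the 3 arrays highest in brown fat markers (Hspb6, an alternative chosen after seeing the data) and 0.107 with slide as a random block (Hspb7). Over all genes, 53 were called in the comparison as reported, 33 with median scaling, 24 with no filter on dim probes, 80 with slide as a random block, 30 without the 3 arrays high in heart or T cell markers, 1, 1 and 0 on slides 1, 2 and 3 alone, and 21 to 59 with 1 array left out. Same-numbered arrays of the ages deviated together with r of -0.361 to 0.323 and 2 of 12 arrays correlated best with their own number. The numbers were therefore not treated as pairs, and whether they stand for shared handling was not tested. With a replicate block, 0 members were called (lowest adjusted p = 0.437) and 6 genes in all. Slides alone held 2 mice of each age.

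Of 1343 values of the 48 named genes over these alternatives, 1284 kept their sign and side of the threshold and 59, in 23 genes, turned sign without passing. Among the family medians, slide 1 alone gave -0.090 for HSP70 (0.058 over all slides), 0.038 for the co-chaperones (0.17), -0.043 for J proteins of class A (0.045) and 0.076 for the small heat shock proteins (-0.0051). Slide 3 alone gave -0.0091 for HSP110 (0.17), 0.066 for the heat shock factors (-0.032), 0.048 for the small heat shock proteins, 0.023 for J proteins of class B (-0.025) and -0.0056 for TRiC (0.012), and leaving out the brown fat arrays gave -0.12 for the small heat shock proteins (-0.0051). Of these, the co-chaperones on slide 1 and the small heat shock proteins without the brown fat arrays kept their sign. The cause of the sign changes in the others was not tested.

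Under scaling, Hspb2 turned to 0.028 (median scaling), 0.033 (quantile) and 0.033 (deposited log2 table), Cct2 to 0.032 in each of these, and Hspa5 to 0.010 (quantile) and 0.010 (deposited table). On slide 1 alone the values were -0.093 for Hsf1, -0.82 for Hspa1a, -0.12 for Hspa2, -0.094 for Hsp90ab1, 0.041 for Hspe1, 0.0080 for Hspb2, -0.34 for Dnaja1, -0.095 for Bag3, 0.0073 for Cct2, -0.0032 for Dnaja4, 0.011 for Dnajb3, 0.0043 for Dnajc15, -0.11 for Chordc1, -0.46 for Dnajb4 and -0.16 for Dnajb5. On slide 2 alone they were 0.18 for Hspa5 and -0.078 for Dnajb4. On slide 3 alone they were 0.014 for Hsf2, -0.0091 for Hspa4l, -0.087 for Hsp90b1, 0.048 for Hspb2, 0.33 for Dnajb1, 0.0037 for Cct2, -0.015 for Cct8 and -0.084 for Fkbp4. Leaving out 1 array moved the difference by over 1.5 times for 31 of the 48 named genes. Of those that kept their sign, Dnajb3 ranged from -0.73 to -0.31, and Hspa9 from -0.29 to -0.063, both smallest in size without 6-month replicate 6. Among those that did not, the differences ranged from -0.10 to 0.034 for Hspa5, -0.097 to 0.065 for Hspb2, -0.025 to 0.017 for Cct2, -0.0063 to 0.031 for Cct8, -0.027 to 0.054 for Hsp90ab1 and -0.0021 to 0.089 for Hsp90b1. Without the arrays high in heart or T cell markers they were 0.018 for Hspa5, 0.14 for Hspb2 and 0.0063 for Cct2. Without the arrays highest in brown fat markers they were 0.011 for Hspa4, 0.045 for Dnajb1 and 0.0024 for Cct2. Probes near background bound what can be said of Dnajc22, Dnajb3, Dnajc27 and Hspb9.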
